A study of Mus musculus with 2 samples.

Results

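The 14-3-3 genes are described here in long-read RNA libraries of mouse gastrocnemius, a calf muscle made mostly of fast-twitch fibres. The animals were B6CASTF1/J females, offspring of C57BL/6J and the wild-derived CAST strain, at an age of 25 days. The labels give 1 group, with no treatment named, in 2 biological replicates, and the starting material of a library was 2 µg of total RNA from bulk tissue. There is therefore no contrast between conditions: the text gives the levels and isoforms of the family and how far the 2 libraries differed. Members were taken by gene name: Ywhab, Ywhae, Ywhag, Ywhah, Ywhaq and Ywhaz, 6 of 15521 annotated genes with reads. They held 30 transcript models in replicate 1 and 37 in replicate 2, 67 of 169714 model entries in all. The genes, and 1 unannotated Ywhae chain, were selected on the read counts measured in these libraries, so their levels and the share of that chain are descriptions without a test.

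14-3-3 proteins are small adaptors that work as dimers. They hold other proteins through short motifs carrying a phosphorylated serine or threonine, and in doing so can keep a client in the cytoplasm, block an enzyme or shield the phosphate. In skeletal muscle their clients include class II histone deacetylases, FoxO factors and the Rab GTPase-activating proteins Tbc1d1 and Tbc1d4, which act in glucose uptake. Each gene encodes 1 isoform named by a Greek letter: Ywhab beta, Ywhae epsilon, Ywhag gamma, Ywhah eta, Ywhaq theta and Ywhaz zeta, with Sfn encoding sigma. The isoforms share a helical core and differ most at their C-terminal ends, after the groove that binds the client.

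The coding ends of 5 members are shown because the main isoform difference in these data lies there. Each is the coding strand of the GENCODE M21 annotation on GRCm38 (mm10), 5′ to 3′. Capitals mark a 5-base run, TGGAC, that each of these 5 carries and that serves to line them up, and the stop codon.
Ywhab, chr2:164016669-164016725 (+): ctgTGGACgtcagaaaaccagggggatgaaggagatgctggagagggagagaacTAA
Ywhaz, chr15:36772718-36772777 (-): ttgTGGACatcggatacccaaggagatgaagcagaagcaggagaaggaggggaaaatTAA
Ywhaq, chr12:21391356-21391415 (-): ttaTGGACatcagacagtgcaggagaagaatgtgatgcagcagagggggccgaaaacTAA
Ywhag, chr5:135910995-135911051 (-): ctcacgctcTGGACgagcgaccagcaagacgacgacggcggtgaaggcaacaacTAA
Ywhae, the exon before the insertion described below, chr11:75759292-75759428 (+): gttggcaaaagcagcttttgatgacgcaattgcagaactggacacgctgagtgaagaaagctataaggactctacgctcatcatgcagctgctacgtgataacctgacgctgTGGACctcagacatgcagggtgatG
Ywhae, the coding end after the insertion, chr11:75764620-75764672 (+): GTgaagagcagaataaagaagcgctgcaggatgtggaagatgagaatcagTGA
In the 2 Ywhae stretches the last G of the first and the GT that opens the second are also in capitals, since they form 1 codon that the intron splits. In Ywhab, Ywhaz and Ywhaq the whole coding part of the last exon is printed, and the shared run begins after its first 3 bases. In Ywhae the same run lies in the exon before, 20 bases ahead of the last splice junction. That exon holds the run at 2 places and the second is the one marked.

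The coding layouts fall into 3 kinds. Ywhab, Ywhaq and Ywhaz have 5 coding exons, with the 3 inner ones at 124, 164 and 96 bases in each gene. Ywhag and Ywhah have 2, a first of 87 bases in both and a second of 654 and 651 bases. Ywhae has 6, of 64, 200, 107, 207, 137 and 50 bases, and encodes 255 codons, against 245 to 247 in the other members. Over the 15 pairs of translated coding sequences, identity ran from 64.1% to 87.0% of aligned residues. The closest pairs were Ywhag with Ywhah (87.0%) and Ywhab with Ywhaz (86.9%), while Ywhae was at 64.1% to 68.2% with every other member.

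The mouse reads numbered 1069771 in replicate 1 and 1557594 in replicate 2, with spike-in reads left out. A count of 0, which allows up to 3 reads, leaves room for 2.80 and 1.93 CPM, the gene's reads scaled to the library's total of mouse reads. Ranges in brackets after a share are exact 95% intervals (Clopper-Pearson); like these floors, they hold counting error and no other. All 10 fast-fibre marker genes had reads, at 204748 and 227453 CPM in sum, as the tissue label says. The libraries stood apart in their markers by Fisher's exact test: of the fast-fibre genes 7 were higher and 3 lower in replicate 2, the latter Myh4 (16360 and 7963 CPM), Myh1 (7673 and 1502 CPM) and Actn3 (8818 and 5120 CPM). All 7 slow-fibre genes were higher there (880 and 6806 CPM in sum) and so were all 5 tendon genes (67.3 and 386 CPM). Haemoglobin and other blood genes were all lower there (4 of 4, 1048 and 365 CPM), as were 4 of 5 adipocyte genes (452 and 234 CPM for the list), and of 4 tested markers of Schwann cells and nerve 3 were lower (265 and 161 CPM for the whole list). The part that these differences play in the family's values was not tested. In bulk tissue fewer cells of a type and less RNA per cell cannot be told apart.

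Over all reads the family as a whole stood at almost 1 level in both libraries, and Ywhae gave most of it. The 6 genes had 696 reads in replicate 1 and 998 in replicate 2, or 651 and 641 CPM (645.7 ± 6.98, SD, n = 2). Ywhae (ENSMUSG00000020849.13, chromosome 11, 75732869 to 75765845, plus strand) had 387 and 558 reads, or 362 and 358 CPM (360 ± 2.49). These were 55.6% (51.8 to 59.3) and 55.9% (52.8 to 59.0) of the family's reads. Its lower library lay above the higher library of any other member, on the scale of CPM and also of CPM per kilobase of model length.

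Behind Ywhae came 4 genes of similar level. Ywhah (ENSMUSG00000018965.11, chromosome 5, 33018816 to 33027966, plus strand) stood at 79.5 and 64.2 CPM. Ywhaq (ENSMUSG00000076432.13, chromosome 12, 21390071 to 21417637, minus strand) stood at 52.3 and 91.2 CPM. Both averaged 71.8, with an SD of 10.8 for Ywhah and 27.4 for Ywhaq (n = 2), so their order is not settled. Ywhab (ENSMUSG00000018326.9, chromosome 2, 163994960 to 164018588, plus strand) stood at 71.0 and 49.4 CPM (60.2 ± 15.3). Ywhag (ENSMUSG00000051391.9, chromosome 5, 135908409 to 135934616, minus strand) stood at 61.7 and 51.4 CPM (56.5 ± 7.31). Neighbours in this middle order overlapped between the libraries. Ywhaz (ENSMUSG00000022285.17, chromosome 15, 36770770 to 36796929, minus strand) was lowest in both, at 24.3 and 26.3 CPM (25.3 ± 1.43), below both libraries of every other member.

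**Figure D1:**
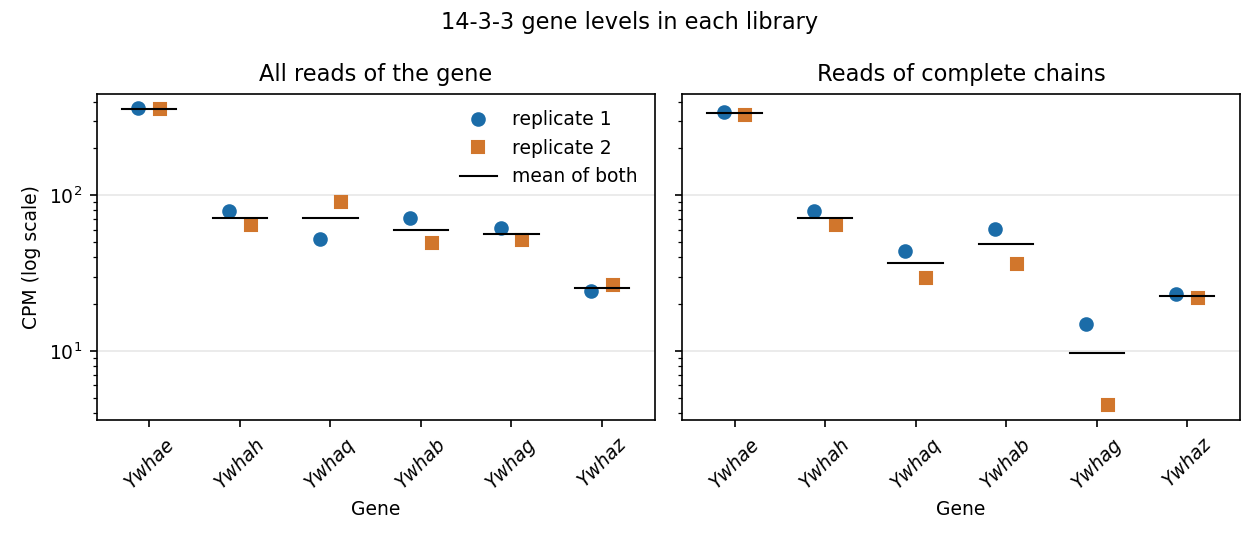
Level in CPM (log scale; CPM is reads scaled to the library total) of each 14-3-3 gene in replicate 1 (circles) and replicate 2 (squares), with the mean as a line, for all reads on the left and for reads of complete intron chains on the right. Ywhae lies near 360 CPM in both libraries, and Ywhag falls from the middle group on the left to the lowest place on the right, at 15.0 and 4.49.

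The order depended on which reads were counted, because the members differed in how many of their reads were complete. A complete chain is here a model that is annotated (Known), a new combination of known splice sites (NIC) or a chain with a new splice site (NNC). The other reads were incomplete matches to a model (ISM) or fitted none and were called Genomic. Complete chains held 604 of 696 family reads (86.8%) in replicate 1 and 756 of 998 (75.8%) in replicate 2. On these chains the family stood at 565 and 485 CPM, so its near-equal level held for all reads and not for complete chains. On complete chains alone Ywhae averaged 336 CPM, Ywhah 71.8, Ywhab 48.4, Ywhaq 36.7, Ywhaz 22.6 and Ywhag 9.73. Ywhab and Ywhaq then overlapped between the libraries, and the other neighbours in this order did not. Per kilobase of the read-weighted mean model length Ywhae stood at 172 and 177 CPM per kb, and Ywhaz was again lowest at 11.1 and 11.9.

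The leading Ywhae transcript was not in the annotation. It had all 6 exons of the annotated Ywhae-201 and a further one between the last 2, for 7 exons and 2145 bases. This chain had 288 reads in replicate 1 and 399 in replicate 2, while Ywhae-201 had 69 and 80. It took 74.4% (69.8 to 78.7) and 71.5% (67.6 to 75.2) of all Ywhae reads, 73.0% ± 2.06 on average (SD, n = 2). At 269 and 256 CPM the chain by itself exceeded the total of any other member in both libraries. The deposited class labels called it NNC in replicate 1 and NIC in replicate 2, though neither splice site of the added exon is in the annotation.

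**Figure D2:**
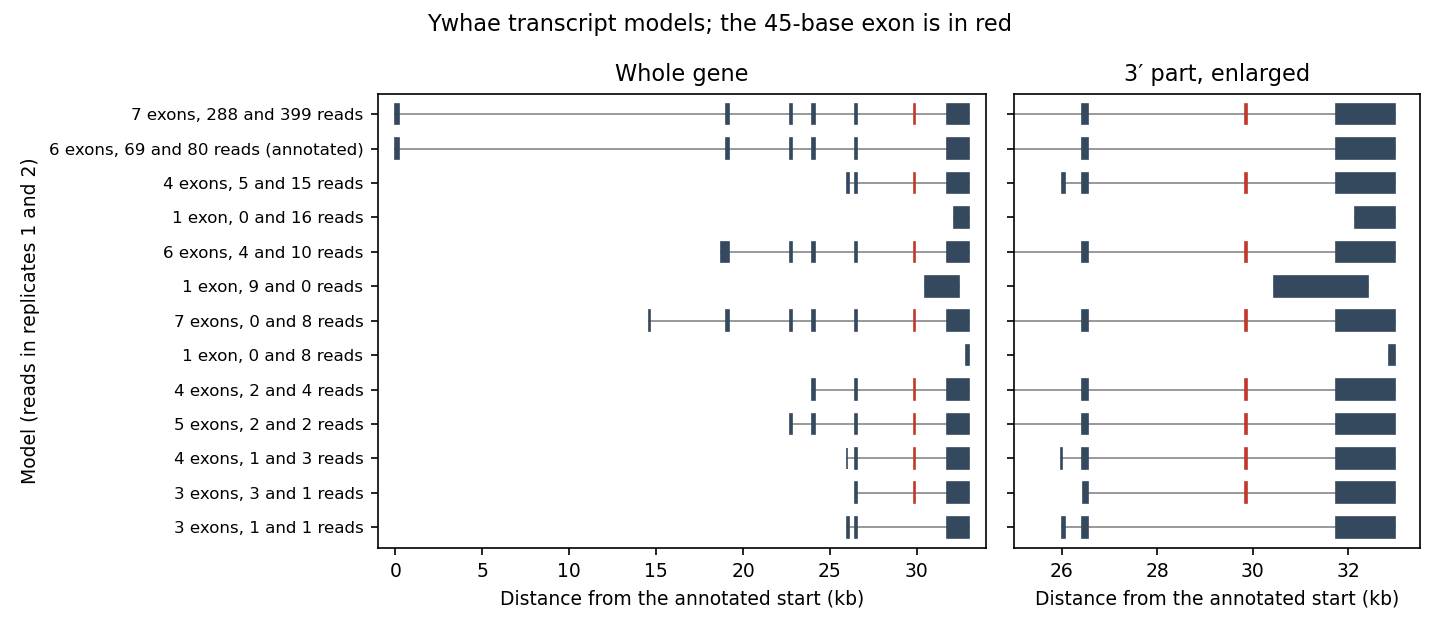
Transcript models of Ywhae with 5 or more reads over both libraries or with reads in both, drawn to scale by distance from the annotated start in kilobases, with exons as boxes and the 45-base exon in red; the right panel enlarges the 3′ part. The 7-exon chain, with 288 and 399 reads, holds the red exon, and the annotated 6-exon chain, with 69 and 80, does not.

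The added exon spans chr11:75762698-75762742 on the plus strand, 45 bases, inside the annotated last intron of 5191 bases. It divides that intron into 3269 bases before it and 1877 after it, and no annotated transcript has an exon there. Its position is coding: it follows base 715 of the 765 coding bases, 1 base into codon 239, so that the G and the GT shown above come to lie on either side of it. After it 50 coding bases remain, 16 of their codons whole. Its length is a multiple of 3, equal to 15 codons. Its own letters were not read here, so whether it holds a stop codon, and what residues it would add near the C-terminus, was not tested.

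Most reads that could show the exon held it. Of the reads whose model reached across both neighbouring exons, 306 of 378 (81.0%, 76.6 to 84.8) held it in replicate 1 and 449 of 531 (84.6%, 81.2 to 87.5) in replicate 2. The intervals overlap, and the mean was 82.8% ± 2.55 (SD, n = 2). In replicate 1 the exon was present in 8 models and skipped in 4, and in replicate 2 it was present in 12 and skipped in 3. Models that began at the annotated first exon held it in 289 of 359 reads (80.5%, 76.0 to 84.5) and 401 of 481 (83.4%, 79.7 to 86.6). Models with any other start held it in 17 of 19 (89.5%, 66.9 to 98.7) and 48 of 50 (96.0%, 86.3 to 99.5). The exon was thus not tied to 1 start in these reads.

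Among all genes a leading chain outside the annotation was uncommon but not rare. Of 3273 genes with 20 or more complete-chain reads in each library and more than 1 chain, 222 (6.78%) had one. By mean CPM the Ywhae chain ranked 21 of 45437 chains outside the annotation. These values describe the place of the chain and are not a test, since it was chosen for its reads.

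Other Ywhae starts were read far less often. The annotated first exon, ending at chr11 position 75733091, began 359 reads in replicate 1 and 481 in replicate 2. A first exon at 75758866 to 75758942, in the intron before the 137-base exon and not annotated, had 5 and 15 reads in a 4-exon chain with the added exon and 1 and 1 in a 3-exon chain without it. A chain whose first exon was 75747455 to 75747521, also not annotated, had 0 and 8 reads, so it was seen in replicate 2 alone. A 4-exon chain starting with an exon that ended at 75758866 had 1 and 3 reads. Each of these would lack the annotated first coding exon. Of the chains deposited as incomplete matches, 4 were read in both libraries, and each held the added exon and a run of the longer chain's introns. They had 4 and 10 reads (6 exons), 2 and 2 (5 exons), 2 and 4 (4 exons) and 3 and 1 (3 exons). The 6-exon model began at 75751604, before the start of the longer chain's second exon at 75751881, so it held bases that this chain lacks. The others began at or within an exon of that chain and cannot be told from a shortened copy of it. In replicate 2, 2 reads joined a first exon of Crk, an upstream signalling adaptor gene on the same strand, to the second exon of Ywhae; they are named after their values were seen. Crk itself had 18 and 24 reads.

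Among complete-chain reads, the other members were mainly their annotated transcripts. Ywhah was the simplest: all 85 and 100 reads were the 2-exon Ywhah-201, 100% in both libraries (lower bounds 95.8% and 96.4%). Ywhab-201, with 6 exons, gave 64 of 65 complete-chain reads in replicate 1 and 55 of 56 in replicate 2. The 2-exon Ywhag-201 gave 15 of 16 and 6 of 7, which leaves wide intervals (69.8 to 99.8 and 42.1 to 99.6). Ywhag-202, a transcript annotated without a coding region, had 1 read in replicate 2.

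In Ywhaq and Ywhaz 2 annotated transcripts were read. Ywhaq-202 had 40 of 47 complete-chain reads in replicate 1 and 40 of 46 in replicate 2, and Ywhaq-201 had 6 and 5. Ywhaz-204 had 23 of 25 and 29 of 34, and Ywhaz-201, with 7 exons and a longer 3′ end, had 1 and 4. Within each gene the 2 transcripts share their coding exons and differ in the leader and at the 3′ end. Over all members 38 different chains with introns were read, 29 of them not annotated, and 18 of the 29 belonged to Ywhae. The 29 are not all complete chains: they include chains classed as ISM or Genomic. Some of these, as in Ywhab and Ywhaq, hold only a run of an annotated chain's introns. Beyond the Ywhae chains given above, each unannotated chain with introns in the other members had 1 read.

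Between the libraries the isoform shares showed no difference past the test. The share of the leading chain among complete-chain reads was 78.7% and 77.8% in Ywhae, 98.5% and 98.2% in Ywhab, 85.1% and 87.0% in Ywhaq and 92.0% and 85.3% in Ywhaz. By Fisher's exact test (two-sided, Benjamini-Hochberg over all 3273 genes) 0 of these 4 members were called, and 0 had an unadjusted p under 0.05; of all genes tested 0.733% were called. Ywhag had too few reads and Ywhah 1 chain alone, so they were not tested. Such tests compare the reads of 2 libraries, not conditions. Their p-values set a difference against counting error and hold no estimate of the spread between animals. The labels give animal number 3 for replicate 1 and 4 for replicate 2, while both libraries carry the same donor record with different biosamples.

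Reads without introns made up most of Ywhag and a varying part of Ywhaq. In Ywhag 49 of 66 reads (74.2%) in replicate 1 and 72 of 80 (90.0%) in replicate 2 lay in 1 model without introns. These models were 1775 and 1505 bases long, ran to the annotated 3′ end and lay wholly in the 3′ UTR, starting 811 and 1081 bases after the stop codon. In Ywhaq such reads were 9 of 56 (16.1%) and 95 of 142 (66.9%). The Ywhaq models were short and differed in place: 157 bases ending 261 bases before the distal annotated end in replicate 1, and 262 bases running to that end in replicate 2. The 2 models meet at 1 position and otherwise do not overlap.

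**Figure D3:**
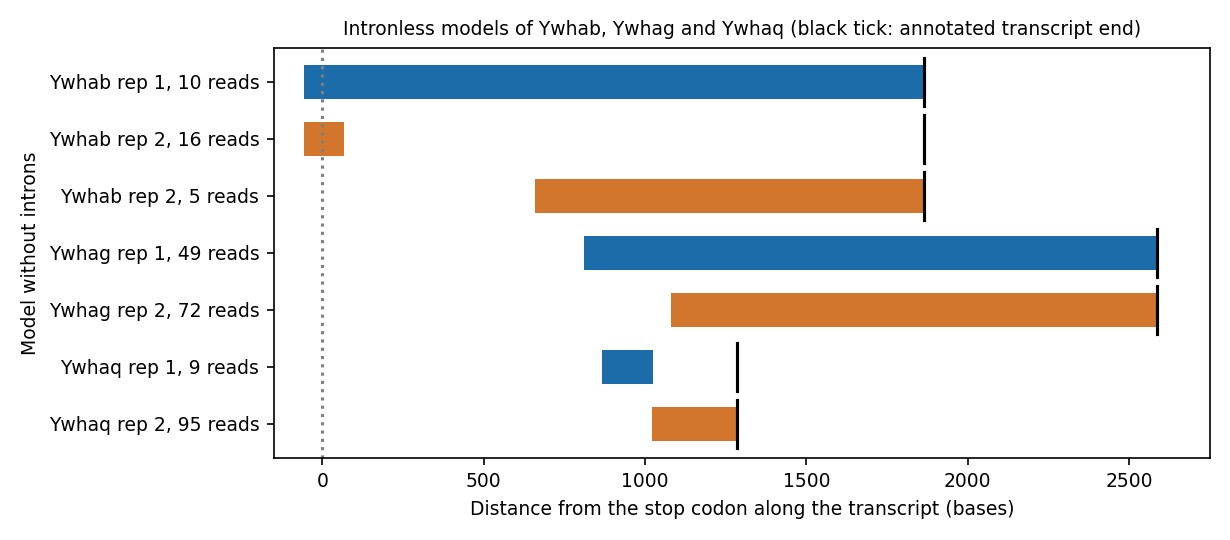
Models without introns and with 5 or more reads in Ywhab, Ywhag and Ywhaq, drawn by distance in bases from the end of the stop codon along the transcript (dotted line at 0), blue for replicate 1 and orange for replicate 2, with a black tick at the annotated transcript end. All Ywhag and Ywhaq models lie beyond the stop codon, and the 2 Ywhaq models occupy adjoining stretches.

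Ywhab, Ywhae and Ywhaz had fewer reads of this kind. In Ywhab they were 10 of 76 in replicate 1, all spanning the whole last exon of 1920 bases, and 21 of 77 in replicate 2. Of those 21, 16 lay in a 124-base model at the start of that exon whose next 20 bases hold 15 A, and 5 lay in a model of 1203 bases at its end. In Ywhae they were 9 and 25, in Ywhaz 1 and 7, and in Ywhah 0 and 0. Over the family they were 78 reads (11.2%) in replicate 1 and 220 (22.0%) in replicate 2. In the whole libraries Genomic reads took 2.19% in replicate 1 and 5.38% in replicate 2, and incomplete matches 8.31% and 11.7%, so these classes were also more frequent in replicate 2 outside the family.

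Few Ywhag reads therefore covered the coding sequence. Reads whose model held the whole coding region were 16 of 66 (24.2%, 14.5 to 36.4) and 6 of 80 (7.5%, 2.80 to 15.6) in Ywhag. In Ywhaq they were 47 of 56 (83.9%) and 46 of 142 (32.4%), so the counts were nearly equal where the gene totals were not. In Ywhae they were 358 of 387 (92.5%) and 480 of 558 (86.0%), in Ywhah all reads, in Ywhab 65 of 76 and 56 of 77, and in Ywhaz 25 of 26 and 34 of 41.

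**Figure D4:**
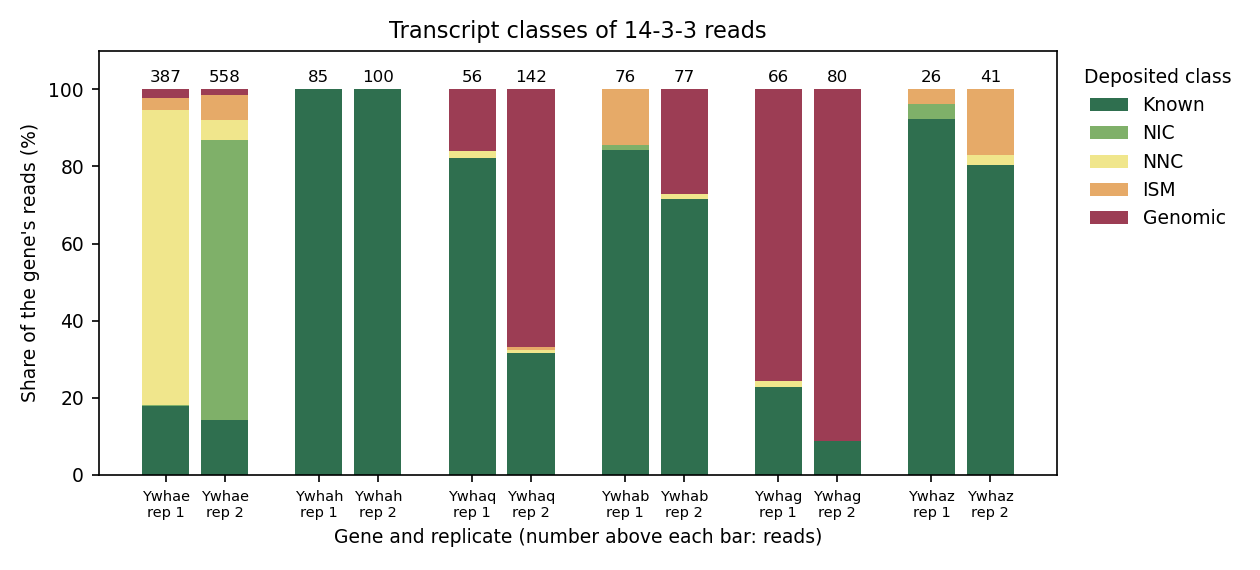
Share of each gene's reads (percent, 0 to 100) in the deposited transcript classes, 1 bar per gene and replicate, with the number of reads above it. Ywhah is wholly Known, the Ywhae bars change from NNC to NIC because the 7-exon chain carries another label in each library, and Genomic reads take 75.8% and 91.3% of Ywhag.

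The share of incomplete reads differed between the libraries in 1 member by each definition, and not in the same one. ISM reads of Ywhab were 14.5% in replicate 1 and 0% of 77 reads in replicate 2 (Fisher's exact test, adjusted p = 0.00527); the count of 0 allows a share of up to 4.68%. Of all 4149 genes tested on this share 8.85% were called, and 1 of 6 members. With ISM and Genomic reads together Ywhab was at 14.5% and 27.3% and did not pass (adjusted p = 0.273). By that definition Ywhaq was at 16.1% and 67.6% (Fisher's exact test, adjusted p = 2.1e-09), the 1 member called, where 14% of all genes were.

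Over all reads of a gene, Ywhaq was the 1 member of 6 whose level differed between the libraries past the test. Its 56 and 142 reads gave a log2 ratio, replicate 2 over replicate 1, of 0.79 (0.34 to 1.27; Fisher's exact test, adjusted p = 0.00268). Of all 8892 genes with 10 or more reads 26% were called, 11.1% higher and 14.9% lower in replicate 2, and their median log2 ratio was -0.18. A share of 1 in 6 is thus no larger than that of genes in general. Counted on complete chains alone, Ywhaq had 47 and 46 reads and the ratio turned to -0.57 (-1.19 to 0.04; adjusted p = 0.146, Fisher's exact test). The higher level was therefore carried by the reads without introns.

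On complete chains Ywhab and Ywhag were lower in replicate 2. Ywhab had 65 and 56 such reads (log2 ratio -0.76, -1.30 to -0.22; Fisher's exact test, adjusted p = 0.0177), where its 76 and 77 reads in all gave -0.52 (adjusted p = 0.0864, Fisher's exact test). Ywhag had 16 and 7 such reads (log2 ratio -1.68, -3.26 to -0.37; Fisher's exact test, adjusted p = 0.0338), against 66 and 80 in all (-0.27, -0.75 to 0.23). Of all genes with 10 or more complete-chain reads 29.8% were called and the median log2 ratio was -0.34. Over all reads, the trend of the ratio with transcript length stood at -0.42 for the length of Ywhab and -0.52 for that of Ywhag. With that trend removed their ratios over all reads were -0.10 and 0.25. The trend was not removed for complete chains, so its part in these 2 calls was not tested. Ywhae, with 366 and 513 such reads, gave -0.06 (-0.25 to 0.14), Ywhah -0.31 (-0.74 to 0.13) and Ywhaz -0.11 (-0.89 to 0.71), and these 3 did not pass. Over all reads, edgeR's exact test at the dispersion estimated from these libraries (a biological coefficient of variation of 0.363) called 0 members, 0 at an unadjusted p under 0.05, and 0.169% of all genes. That dispersion is taken from the same difference that is tested, and the test was not run on complete chains.

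**Figure D5:**
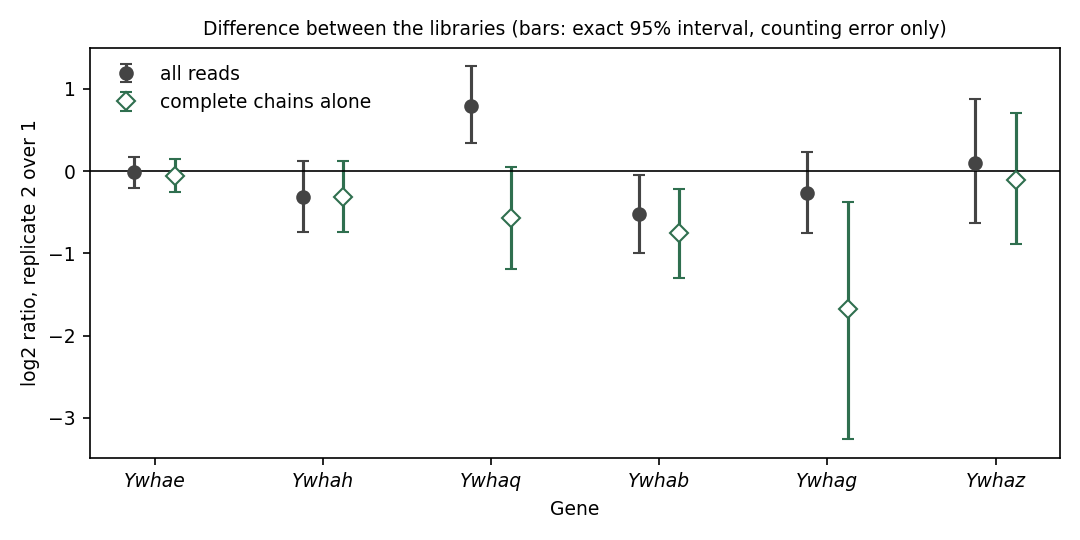
Log2 ratio of each gene's CPM, replicate 2 over replicate 1, for all reads (filled circles) and for complete chains alone (open diamonds), with exact 95% intervals from counting error. Ywhaq lies at 0.79 for all reads and at -0.57 for complete chains, Ywhag moves from -0.27 to -1.68, and Ywhae stays within 0.06 of 0.

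Among proteins known to bind 14-3-3, Synpo2, Mlxipl and Akt1s1 were among the most read. The list held 45 genes, 30 of which had 10 or more reads. Synpo2, an actin-binding Z-disc protein, stood at 395.4 and 254.2 CPM (325 ± 99.8, SD, n = 2). Mlxipl, the glucose-responsive factor ChREBP, had 111 and 233 reads (127 ± 32.4 CPM), and the mTORC1 subunit Akt1s1 had 91 and 71 (65.3 ± 27.9). Of the 30, Mlxipl alone was called higher in replicate 2 by Fisher's exact test (log2 ratio 0.52), 11 were called lower and 18 were not called, beside the 11.1% higher and 14.9% lower of all genes. Their median was -0.67 where all genes had -0.18. The largest called drops were Tbc1d1, with 78 and 23 reads (-2.28), the mTORC1 scaffold Rptor, with 18 and 6 (-2.05), and the transcription factor Foxo1, with 23 and 8 (-2.01). Tbc1d4 had 21 and 13 reads and did not pass, as did Hdac4 (18 and 19) and Hdac5 (15 and 23); these 3 were named after their values were seen.

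Kinases that create 14-3-3 binding sites gave a like picture. Prkaca, the catalytic subunit of protein kinase A, led the 30-gene list with 355 and 350 reads (278 ± 75.8 CPM), followed by Akt1 with 166 and 113, Akt2 with 139 and 141 and Camk2g with 122 and 92. Fisher's exact test called 9 of the 22 tested genes lower and 0 higher and left 13 uncalled, beside 14.9% lower and 11.1% higher of all genes; the median log2 ratio was -0.70. The largest called drops were Sik2 with 23 and 8 reads (-2.01), the AMPK subunit Prkaa2 with 70 and 44 (-1.21) and Camk2d with 66 and 42 (-1.19). Across all genes the ratio was lower for longer transcripts: the trend stood at 0.01 at the length of Ywhah and at -0.52 at that of Ywhag. With that trend kept, an exact binomial test on the genes with a length called 1 client higher and 11 lower of 29, 0 and 9 of the 22 kinases, and 25.9% of all genes. With the trend removed, which centres the ratios on 0 as well, the same test on the same genes called 3 and 2 clients, 0 and 2 kinases, and 13% of all genes. Scaling by TMM or DESeq2 size factors, with the exact binomial test, gave 3 and 7 clients and 0 and 7 kinases under either, and called 23.8% and 23.9% of all genes. Beside these lower calls the slow-fibre and tendon markers were higher, as given above. The blood and most adipocyte markers and the fast myosins Myh1 and Myh4 were lower. With the length trend removed, 4 fast-fibre genes were called higher and 4 lower, and all 7 slow-fibre and 5 tendon genes higher. All 4 blood genes and 3 adipocyte genes were then called lower. The part of these marker differences in the result was not tested.

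The seventh family gene was nearly absent. Sfn, an epithelial isoform made in keratinocytes, had 1 and 2 reads, or 0.935 and 1.28 CPM, under the floor of either library. Of the 5 keratinocyte markers, which include Sfn, Krt5, Krt14 and Krt1 were at 0 in both libraries and Krt10 had 9 and 18 reads. The annotated Ywhaq pseudogenes Ywhaq-ps1, Ywhaq-ps2 and Ywhaq-ps3 had 0 reads, as did Gm4419, an antisense transcript at the start of Ywhaq. Gm26836, a noncoding gene on the other strand within Ywhae, had 0 and 6 reads. The sources used here do not give how reads were assigned between near-identical copies or overlapping genes.

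By level over the 2 libraries, measured as Euclidean distance in log2(CPM + 1), each member had a near neighbour among protein-coding genes. It was Capzb, an actin capping subunit, for Ywhae (distance 0.12), Wbp11 for Ywhab (0.03), Arhgef10l for Ywhag (0.02), Plin2 for Ywhah (0.03), Pfdn5 for Ywhaq (0.03) and Sac3d1 for Ywhaz (0.03), tied with 1 other gene. With 2 points a gene this describes level alone.

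In the RefSeq promoter windows on GRCm38.p6 (250 bases before the start to 50 after), 4 of the 6 members were matched: Ywhae, Ywhag, Ywhah and Ywhaq. Their G and C content ran from 61.3% to 71.7%, where the median of all 32851 windows was 52.7%. The letters TATAAA, on either strand, were in 1 of the 4, Ywhah, and in 13.6% of all windows. At the other end, the last 50 bases of the 8 annotated transcripts with most reads held AATAAA or ATTAAA on the transcript strand, as did 66.6% of 42836 annotated protein-coding transcripts with a 3′ UTR. In Ywhae-201 the form was ATTAAA, 27 bases from the end, and in the others AATAAA, 19 to 25 bases from it. Ywhaq-201, whose annotated end lies within 3 bases of the point where the 2 intronless Ywhaq models meet, carried AATAAA 25 bases before that end. These matches are descriptions of letters, not of sites in use.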

How the data were processed

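Long-read RNA libraries of 2 gastrocnemius samples were analysed. The deposited tables hold raw counts of reads per transcript model, and the authors' gene models give exon coordinates. Per the deposited notes the assembly is mm10 and the annotation GENCODE M21, and the model files name TALON as their source; the sources used here give no platform, aligner or read filter. Reads were summed per gene and scaled to CPM over mouse reads. Models were matched between libraries by chromosome, strand and intron chain. Log2 ratios had 0.5 reads added. Fisher's exact tests, two-sided, ran over all genes with 10 or more reads (20 in each library for shares) with Benjamini-Hochberg adjustment at 0.05. Tests were tried on simulated data. The members and lists were chosen with earlier results of these data known. Named were all members, Sfn, Ywha pseudogenes, chains with 5 or more reads or reads in both libraries, the nearest gene, and of each list the 4 most read and up to 3 called with the largest ratio each way. Results for an item the rule took are not reported here. Marker lists not described in the text summed, in replicates 1 and 2, to 5576 and 3266 CPM (fibroblast), 67.3 and 36.6 (endothelial), 47.7 and 67.4 (leukocyte) and 9.35 and 12.8 (keratinocyte). Alternatives changed scaling (TMM from edgeR 4.0.16, size factors from DESeq2 1.42.0), a lowess length trend (fraction 0.4), classes and read minimums. R 4.3.3, Python 3.11.15, scipy 1.17.1 and statsmodels 0.14.6 were used.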

Additional observations from a re-analysis of the deposited data

How the results depend on the processing

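The family shares moved with the reads counted and with length. Mean Ywhae share was 55.8%, 23.9% on Known models alone, 64.2% on complete chains and 51.0% per kilobase. On Known models Ywhab took 19.2%, Ywhag 3.57%, Ywhah 29.7% and Ywhaz 9.12%; on complete chains Ywhag took 1.79%, Ywhah 13.7% and Ywhaz 4.32%; per kilobase Ywhab took 6.86%, Ywhaq 18.1% and Ywhaz 3.35%. Leaving out each replicate gave 55.6% to 55.9% for Ywhae, 7.72% to 10.9% for Ywhab, 8.02% to 9.48% for Ywhag, 10.02% to 12.2% for Ywhah, 8.05% to 14.2% for Ywhaq and 3.74% to 4.11% for Ywhaz. Members called between the libraries were 1, but 2 on complete chains and 0 by edgeR's exact test. TMM and DESeq2 raised every log2 ratio by 0.18, which turned Ywhae to 0.17 and 0.16; removing the length trend gave 0.15 for Ywhae and 0.25 for Ywhag. Complete chains turned Ywhaq to -0.57 and Ywhaz to -0.11. The share of the 7-exon Ywhae chain was 71.5% to 74.4% without each replicate, 78.2% of complete-chain reads, and 82.8% as the share of spanning reads with the exon, an alternative chosen after seeing the data. Called clients were 12 and kinases 9 by Fisher's test, and also by an exact binomial test on the genes with a length, added after seeing the data; with the length trend and overall level removed that test called 5 and 2. The causes of these moves were not tested. Ywhag had 16 and 7 complete-chain reads, which limits statements on its chains. No paired analysis was possible because there is 1 group.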

Other observations

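Ywhag and Ywhah are the closest pair of the family in coding sequence and share the layout of 2 coding exons, yet their reads differed in kind. Each Ywhah read was assigned to the spliced Ywhah-201, while models without introns in the 3′ UTR gave 74.2% and 90.0% of Ywhag reads. The ends of single reads were not examined. The annotated 3′ UTR is 771 bases in Ywhah-201 and 2586 bases in Ywhag-201, and the transcripts are 1764 and 3520 bases long. In the other members, models without introns are counted whether or not they lay wholly in the 3′ UTR. They gave 13.2% and 27.3% of reads in Ywhab (3013 bases) and 16.1% and 66.9% in Ywhaq (Ywhaq-202, 2197 bases). In Ywhaz (Ywhaz-204, 2122 bases) they gave 3.85% and 17.1%, and in Ywhae (Ywhae-201, 2100 bases) 2.33% and 4.48%. At these lengths longer transcripts had higher shares in both libraries, except that Ywhaq lay above the longer Ywhab. The leading Ywhae chain, with 7 exons, has 2145 bases. Placed at that length, Ywhae is longer than Ywhaz-204 but lay below it in both libraries, a further exception. No test was run on this.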
